A study of Macaca mulatta with 12 samples.

Results

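Collagen genes, the lysyl oxidases and the hydroxylases that modify collagen chains were followed across embryonic stem (ES) cell lines and skin fibroblasts of the rhesus macaque. A probe set, the group of short probes that reports one transcript, was taken when its annotation held exactly 1 symbol and that symbol was a collagen chain gene, LOX or LOXL1 to LOXL4, P4HA1 to P4HA3, or PLOD1 to PLOD3. The rule found 45 genes of 12993 named genes on the array, 35 collagen genes and 10 enzyme genes, through 79 probe sets. Of these genes, 21 had 1 probe set and 24 had more, and each gene is given below by the probe set whose average over the 12 arrays was highest, unless another is mentioned. A further 11 genes on the list, among them COL4A1 and COL4A2, were not analysed here.

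Collagens are secreted proteins in which chains wind around each other into a helix rich in proline and glycine. Fibrillar collagens, such as types I, III and V, form the cables that give skin and tendon their strength, whereas type IV collagen forms the sheet-like network of basement membranes. FACIT collagens (fibril-associated collagens with interrupted triple helices) sit on fibril surfaces, type VI collagen makes beaded microfibrils around cells, and type VII collagen anchors epidermis to dermis. Inside the cell, prolyl 4-hydroxylases stabilise the helix and lysyl hydroxylases prepare lysines for crosslinking. Outside it, lysyl oxidases oxidise lysines and so start the crosslinks that hold fibrils together. Dermal fibroblasts are the main producers of this matrix in skin.

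The 4 populations compared were each measured on 3 arrays and given the replicate letters A, B and C. ORMES-22 is a female ES line whose source embryo came from in vitro fertilisation. It carries maternal and paternal chromosomes and was sampled at passages 18, 21 and 19. rPESC-2 is a female parthenogenetic ES line, derived without a sperm genome and heterozygous, sampled at passages 16, 10 and 16. ORMES-9 is a female homozygous parthenogenetic ES line, sampled at passages 13, 14 and 16. One field of the ORMES-9 labels gives a fertilised blastocyst as its source, whereas its description and the series design give a homozygous parthenote, and it is treated here as the latter. The fibroblasts were male, were released with collagenase from back skin of a 9-year-old monkey and were cultured, with no feeder layer named in the labels. All ES lines grew on mitotically inactivated mouse embryonic fibroblasts, and undifferentiated colonies were picked for RNA. Each ES type was 1 line, so the replicates are samples of that line, and p-values measure the spread between replicates and not between independent lines or animals. That spread is pooled per probe set over all 4 groups. Standard errors (SE) and p-values between ES lines therefore rest partly on the fibroblast arrays. For LOX, P4HA1 and COL6A3 the standard deviation was 1.27, 0.75 and 0.57 in ORMES-22 and 0.01, 0.03 and 0.04 in fibroblasts. Sex, feeder layer, culture medium and donor differ together with cell type in the fibroblast comparison and cannot be told apart from it. Every ORMES-22 passage number was above those of the parthenogenetic lines. In the comparisons with ORMES-22, line and passage therefore differ together with parthenogenetic origin and cannot be told apart from it either.

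The values are log2 expression levels, on which a difference of 1 is 2-fold. Array medians ran from 5.012 to 5.098. Over all named genes, replicates correlated at r between 0.9942 and 0.9976 within rPESC-2, ORMES-9 and the fibroblasts. Within ORMES-22, where replicate A stood apart, r was between 0.9806 and 0.9922. A probe set was called higher or lower when its adjusted p (limma, Benjamini-Hochberg over all probe sets) was under 0.05 and its difference was at least 2-fold. Signal was judged against 42 bacterial control probe sets, whose 90th percentile was 4.17. Above that level lay 39 of the 45 genes in all 4 groups, COL21A1 in fibroblasts and no ES line, and COL4A4 in no group. The labelled cell types were checked on markers. The mean level of 10 undifferentiated ES cell markers was 9.65 to 10.24 over the 9 ES arrays and 4.94 to 5.06 in fibroblasts. Of these markers 8 were called lower in fibroblasts, ZFP42 was not called (-0.10), and NANOG was called higher (1.32). The mean level of 11 fibroblast markers was 9.96 to 10.09 in fibroblasts and 6.04 to 6.74 in the ES lines, where FAP and LUM were below the background level in every line. Of these markers 8 were called higher in fibroblasts and 0 lower, while THY1 (-0.31) and DCN (-0.43) were below the ES mean and not called.

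**Figure D1:**
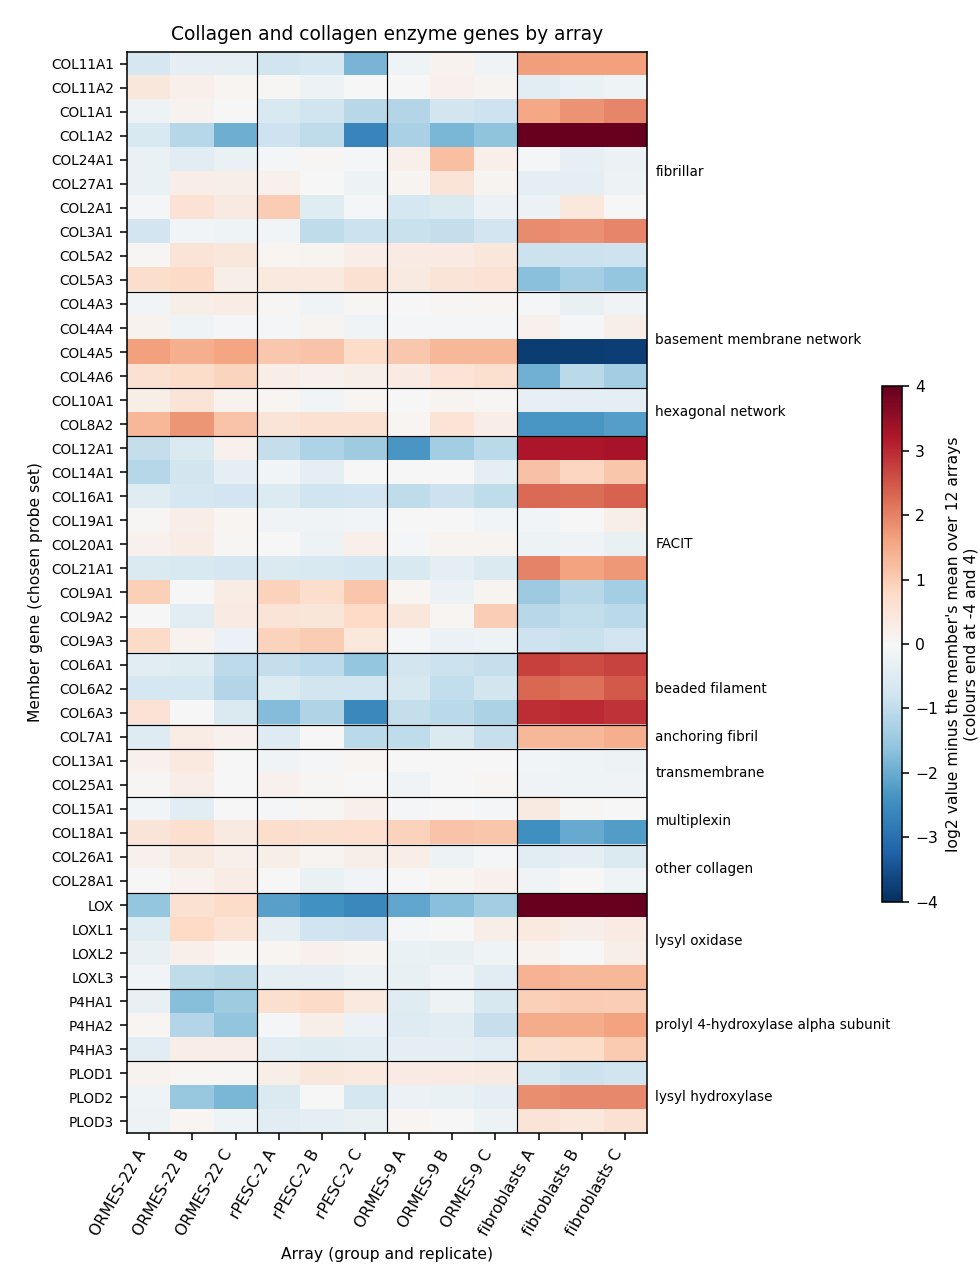
Levels of the 45 genes (rows, by class) on the 12 arrays (columns, by group), each shown as the log2 difference from the gene's mean over the arrays, with red above and blue below it and colours ending at -4 and 4. Fibroblasts stand apart in both directions, whereas differences among the ES lines are small for most genes.

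Fibroblasts differed from the ES lines in both directions, with type I, III, VI and XII collagen chains and LOX higher and several type IV, VIII, IX and XVIII chains lower. Against the mean of the 3 ES lines, 18 of 45 genes were higher in fibroblasts, 10 were lower and 17 were not called. Over all named genes, 13.2% were called higher and 15.0% lower. The median difference of the 45 genes was 0.16, and that of all named genes was -0.15. Among the 35 collagens 12 were higher and 9 lower, and among the 10 enzymes 6 were higher and 1 was lower. At an unadjusted p under 0.05, 37 of the 45 genes differed, against 74.3% of all named genes. For all 28 called genes the 3 fibroblast values lay outside the range of the 9 ES values. A call at 2-fold makes this likely, and no such share was taken over all named genes, so it adds no separate support. In these bulk cultures, fewer cells of a type and less RNA per cell cannot be told apart.

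**Figure D2:**
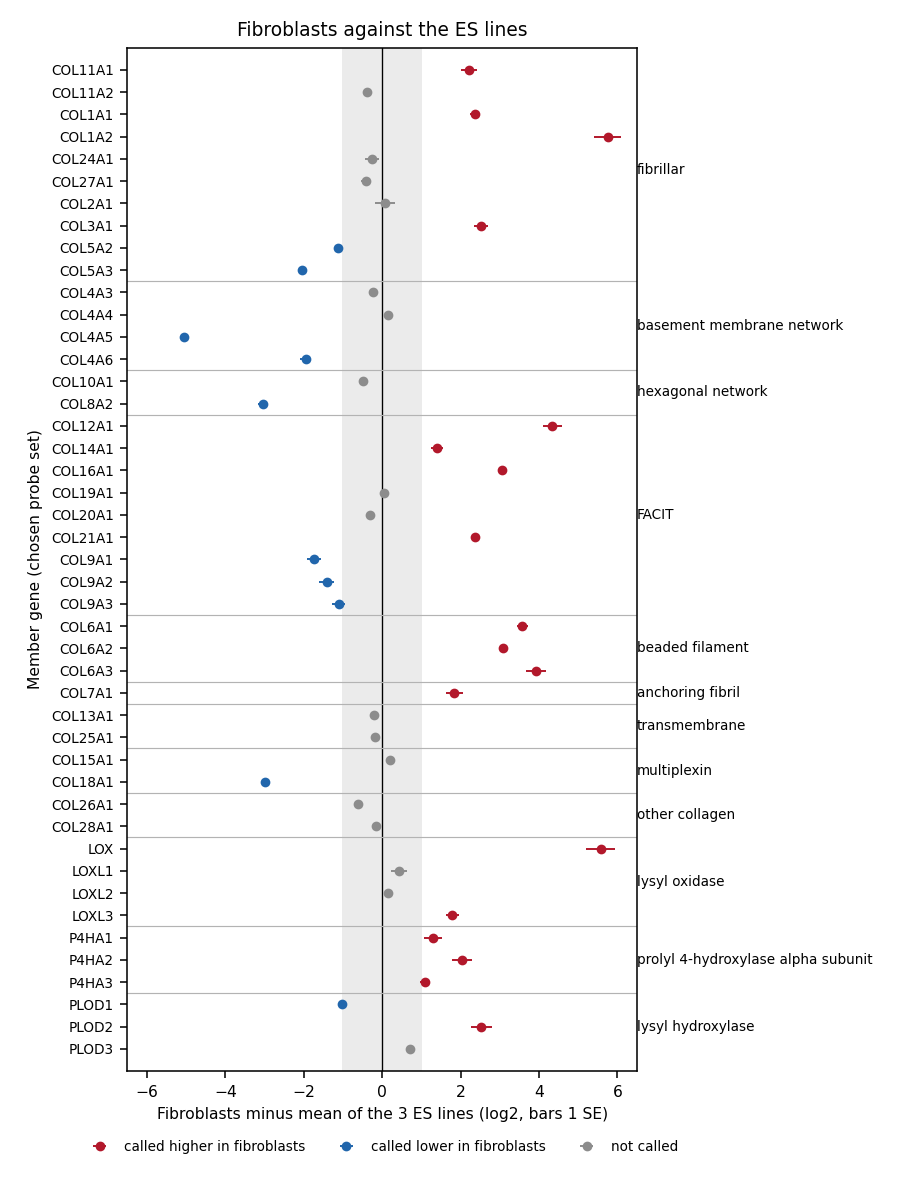
Difference between fibroblasts and the mean of the 3 ES lines (log2, point with 1 SE) for each gene, grouped by class; red is called higher, blue called lower and grey not called, and the grey band marks differences under 2-fold. All 3 type VI chains lie to the right, between 3.09 and 3.92, and COL4A5 lies farthest to the left at -5.06.

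Of the 10 fibrillar collagen genes, 4 were higher in fibroblasts and 2 lower. The chains of type I collagen, the main fibril protein of skin, were both higher. COL1A2 read 9.19, 8.68 and 7.85 in ORMES-22, 8.98, 8.81 and 7.16 in rPESC-2, 8.51, 7.98 and 8.21 in ORMES-9, and 14.09, 14.15 and 14.15 in fibroblasts. Its fibroblast values were thus tight and far above a scattered ES range, a difference of 5.75 (SE 0.35, limma adjusted p = 2.17e-08) or 54.0-fold. COL1A1 was 12.87 to 13.28 in fibroblasts against 10.14 to 11.45 on the ES arrays, a difference of 2.36 (SE 0.13). The difference was thus 5.15-fold for this chain.

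COL3A1, whose product joins type I in skin fibrils, read 6.54, 7.20 and 7.12 in ORMES-22, 7.19, 6.27 and 6.44 in rPESC-2, 6.40, 6.33 and 6.52 in ORMES-9, and 9.18, 9.11 and 9.26 in fibroblasts. No ES array came near the fibroblast level, and the difference was 2.52 (SE 0.18, limma adjusted p = 9.58e-08). COL11A1, a chain of a minor fibrillar collagen known from cartilage, was 10.92 to 10.93 in fibroblasts and 7.40 to 9.42 in the ES lines, a difference of 2.21 (SE 0.20). COL2A1, the main cartilage collagen, differed by 0.07 (SE 0.26) and was not called. The remaining fibrillar genes, COL11A2, COL24A1 and COL27A1, differed by -0.38, -0.27 and -0.42 and were not called. The mean level of 6 cartilage and bone markers was 5.66 to 5.71 in fibroblasts and 6.10 to 6.42 in the ES lines.

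The fibrillar chains called lower belong to type V collagen, which controls fibril width. COL5A3 read 7.84, 7.90 and 7.35 in ORMES-22, 7.53, 7.52 and 7.73 in rPESC-2, 7.50, 7.64 and 7.72 in ORMES-9, and 5.46, 5.76 and 5.58 in fibroblasts. All ES arrays were above all fibroblast arrays, by 2.04 on average (difference -2.04, SE 0.11, limma adjusted p = 1.18e-08). COL5A2 read 12.21, 12.69 and 12.62 in ORMES-22, 12.27, 12.28 and 12.44 in rPESC-2, 12.50, 12.51 and 12.62 in ORMES-9, and 11.33, 11.32 and 11.34 in fibroblasts, a difference of -1.13 (SE 0.09). Of the 4 COL5A2 probe sets, this one was called lower, another was lower by less than 2-fold (-0.80), and the remaining ones were called higher in fibroblasts by 6.03 and 5.79. The direction of COL5A2 is therefore not settled by these arrays.

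Of 4 basement membrane network genes 2 were lower in fibroblasts and 0 higher. COL4A5, a chain of type IV collagen, read 9.87, 9.69 and 9.80 in ORMES-22, 9.33, 9.38 and 8.98 in rPESC-2, 9.32, 9.56 and 9.57 in ORMES-9, and 4.43, 4.44 and 4.47 in fibroblasts. Fibroblasts were close to the background level of 4.17, and the difference of -5.06 (SE 0.09, limma adjusted p = 2.82e-13), 33.3-fold, was the largest fall among the 45 genes. The other COL4A5 probe set differed by -0.39 and was not called. COL4A6, its neighbour on the X chromosome, read 7.93, 8.07 and 8.21 in ORMES-22, 7.59, 7.51 and 7.58 in rPESC-2, 7.67, 7.87 and 7.97 in ORMES-9, and 5.41, 6.25 and 5.95 in fibroblasts, a difference of -1.95 (SE 0.14). Its other probe set gave -4.36, so both fell. In the assembly T2T-MMU8v2.0, 1 gene lies between COL4A5 and COL4A6. The adjacent pair COL4A3 and COL4A4 differed by -0.23 and 0.16 and was not called.

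COL8A2 encodes a chain of the hexagonal network collagen found under endothelia and in the cornea. It read 7.70, 8.14 and 7.51 in ORMES-22, 6.89, 7.00 and 7.00 in rPESC-2, 6.47, 6.92 and 6.66 in ORMES-9, and 4.04, 4.06 and 4.19 in fibroblasts. Its mean fibroblast level of 4.10 was below the background level, so the fitted difference of -3.05 (SE 0.12, limma adjusted p = 4.85e-10) is understated. COL10A1, known from hypertrophic cartilage, was lower in fibroblasts by less than 2-fold (-0.49, SE 0.08). COL18A1, a multiplexin of basement membranes and the source of the fragment endostatin, read 9.50, 9.68 and 9.35 in ORMES-22, 9.71, 9.65 and 9.68 in rPESC-2, 9.91, 10.14 and 10.10 in ORMES-9, and 6.54, 6.97 and 6.76 in fibroblasts. No fibroblast array reached the ES range, and the difference was -2.99 (SE 0.09), although its other probe set gave -0.82 and was not called. The other multiplexin, COL15A1, stood at 7.58 to 8.36 over all 12 arrays on its chosen probe set (difference 0.19, not called) but was higher in fibroblasts by 4.42 on the other.

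FACIT collagens were divided, with 4 of 9 higher in fibroblasts and 3 lower. COL12A1, whose product coats type I fibrils, read 7.50, 7.86 and 8.61 in ORMES-22, 7.49, 7.19 and 7.02 in rPESC-2, 6.11, 7.06 and 7.36 in ORMES-9, and 11.66, 11.68 and 11.74 in fibroblasts. The fibroblast arrays were 4.34 above the ES mean (SE 0.25, limma adjusted p = 1.56e-08), or 20.2-fold. COL16A1 was 6.67, 6.49 and 6.39 in ORMES-22, 6.60, 6.36 and 6.40 in rPESC-2, 6.14, 6.28 and 6.14 in ORMES-9, and 9.42, 9.40 and 9.51 in fibroblasts, a difference of 3.06 (SE 0.08). COL21A1 was 3.62 to 3.93 on every ES array, below background, and 6.32, 5.95 and 6.06 in fibroblasts. Since the ES values are at background, its fitted difference of 2.38 is understated. COL14A1 rose by 1.40 (SE 0.15), and of its 3 other probe sets 1 rose by 3.24 while the others gave 0.08 and 0.20.

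The FACIT genes that fell are the 3 chains of type IX collagen, which decorates cartilage fibrils. COL9A1 read 7.62, 6.64 and 6.94 in ORMES-22, 7.59, 7.36 and 7.78 in rPESC-2, 6.72, 6.42 and 6.76 in ORMES-9, and 5.21, 5.54 and 5.31 in fibroblasts. COL9A2 read 7.38, 6.96 and 7.72 in ORMES-22, 7.93, 7.89 and 8.21 in rPESC-2, 7.87, 7.47 and 8.39 in ORMES-9, and 6.30, 6.41 and 6.31 in fibroblasts. The differences were -1.74 (SE 0.17) for COL9A1, -1.42 (SE 0.18) for COL9A2 and -1.11 (SE 0.17) for COL9A3, so all the chains were lower. The second COL9A1 probe set gave -0.18 and was not called. COL19A1, which lies next to COL9A1 in the T2T-MMU8v2.0 gene order, differed by 0.05 (SE 0.08). COL20A1 differed by -0.30 (SE 0.09), and neither of these was called.

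All 3 measured chains of type VI collagen rose. COL6A1 read 9.19, 9.16 and 8.58 in ORMES-22, 8.67, 8.58 and 8.07 in rPESC-2, 8.91, 8.76 and 8.72 in ORMES-9, and 12.35, 12.23 and 12.34 in fibroblasts. COL6A2 read 7.85, 7.86 and 7.38 in ORMES-22, 7.99, 7.83 and 7.80 in rPESC-2, 7.92, 7.57 and 7.81 in ORMES-9, and 10.84, 10.77 and 11.00 in fibroblasts. COL6A3 read 8.97, 8.40 and 7.83 in ORMES-22, 6.66, 7.20 and 5.82 in rPESC-2, 7.45, 7.32 and 7.12 in ORMES-9, and 11.35, 11.37 and 11.29 in fibroblasts. Their differences were 3.57 (SE 0.14), 3.09 (SE 0.11) and 3.92 (SE 0.26), and COL6A3 varied most among ES arrays. The remaining COL6A2 probe set differed by 0.87 and was not called, and the other COL6A1 probe sets rose by 2.60 and 3.25.

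COL7A1, the anchoring fibril collagen made by keratinocytes and fibroblasts, read 6.61, 7.40 and 7.30 in ORMES-22, 6.61, 7.12 and 6.05 in rPESC-2, 6.10, 6.55 and 6.20 in ORMES-9, and 8.45, 8.45 and 8.58 in fibroblasts. It rose by 1.84 (SE 0.21), and its other probe set by 1.01. Of the classes with no call in this comparison, the transmembrane collagens COL13A1 and COL25A1 differed by -0.21 and -0.19, and COL26A1 and COL28A1 by -0.61 and -0.15. COL25A1 read 5.86, 6.08 and 5.84 in ORMES-22, 5.99, 5.86 and 5.79 in rPESC-2, 5.67, 5.83 and 5.86 in ORMES-9, and 5.69, 5.66 and 5.68 in fibroblasts. COL26A1 read 6.72, 6.91 and 6.75 in ORMES-22, 6.77, 6.66 and 6.79 in rPESC-2, 6.81, 6.34 and 6.49 in ORMES-9, and 6.11, 6.18 and 5.96 in fibroblasts. The fibroblast values of COL26A1 lay below every ES value, whereas those of COL25A1 overlapped them.

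Among the 4 lysyl oxidases measured, LOX and LOXL3 were higher in fibroblasts. LOX, the founding enzyme of collagen and elastin crosslinking, read 5.51, 7.65 and 7.77 in ORMES-22, 4.89, 4.62 and 4.46 in rPESC-2, 4.98, 5.38 and 5.65 in ORMES-9, and 11.22, 11.23 and 11.24 in fibroblasts. The difference was 5.57 (SE 0.37, limma adjusted p = 5.60e-08), or 47.6-fold, and against ORMES-22 alone 4.25. Its other probe sets rose by 1.52 and 4.69. LOXL3 was 9.69 to 9.75 in fibroblasts and 7.25 to 8.27 in the ES lines, a difference of 1.79 (SE 0.17).

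LOXL1 and LOXL2, other lysyl oxidase relatives, were not called. LOXL1 read 11.18, 12.44 and 12.19 in ORMES-22, 11.28, 10.86 and 10.83 in rPESC-2, 11.61, 11.66 and 11.88 in ORMES-9, and 12.03, 11.90 and 11.99 in fibroblasts, so that ORMES-22 and fibroblasts overlapped. LOXL2 was 10.07 to 10.61 over all 12 arrays, a difference of 0.16 (SE 0.10), although 1 other LOXL2 probe set was called higher at 1.06.

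All 3 prolyl 4-hydroxylase alpha subunits, which carry that enzyme's catalytic site, were higher in fibroblasts. P4HA1 read 9.24, 7.82 and 8.09 in ORMES-22, 10.16, 10.30 and 9.92 in rPESC-2, 9.05, 9.31 and 8.88 in ORMES-9, and 10.46, 10.53 and 10.50 in fibroblasts. The rise over the ES mean was 1.30 (SE 0.23), with rPESC-2 just under the fibroblast values, and the other P4HA1 probe set gave 0.52 and was not called. P4HA2 rose by 2.04 (SE 0.26). P4HA3 rose by 1.10 (SE 0.13), but the difference from ORMES-22 alone was 0.80 and not called.

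The lysyl hydroxylases went different ways. PLOD2, which hydroxylates the telopeptide lysines used in stable crosslinks, read 8.88, 7.55 and 7.22 in ORMES-22, 8.47, 9.05 and 8.35 in rPESC-2, 8.83, 8.78 and 8.66 in ORMES-9, and 10.91, 10.98 and 10.97 in fibroblasts. It rose by 2.53 (SE 0.27, limma adjusted p = 4.58e-06), 5.79-fold. PLOD3 read 9.74, 10.04 and 9.80 in ORMES-22, 9.51, 9.56 and 9.65 in rPESC-2, 10.03, 9.95 and 9.76 in ORMES-9, and 10.48, 10.38 and 10.58 in fibroblasts, 0.70 above the ES mean and under 2-fold. PLOD1, which acts on lysines within the helix, was 8.74 to 8.96 in fibroblasts and 9.63 to 10.04 in the ES lines. Its difference of -1.02 (SE 0.07) was at the edge of 2-fold, was -0.98 once array medians were subtracted, and was -0.30, -0.48 and 0.97 on its other probe sets.

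**Figure D3:**
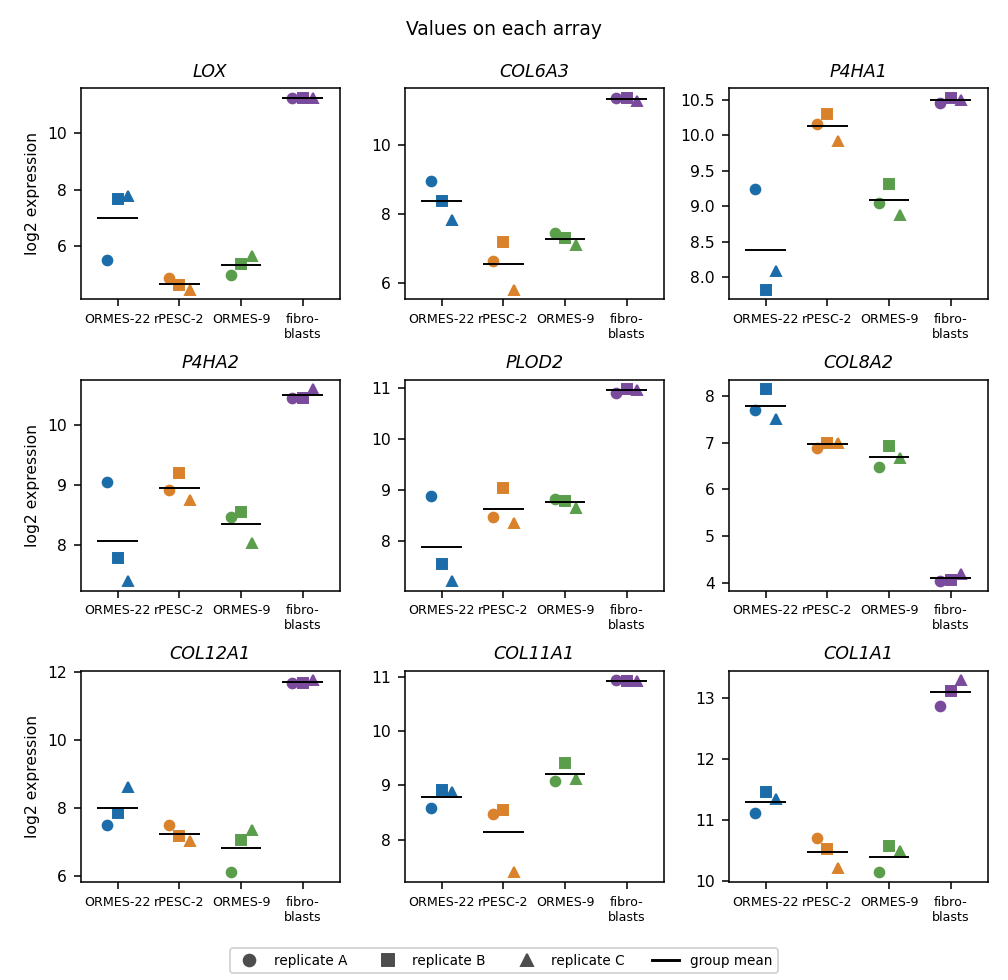
Log2 levels (vertical axis) on each of the 12 arrays for the 6 genes called between ES lines and for P4HA2, PLOD2 and COL1A1; circles, squares and triangles are replicates A, B and C and the horizontal line is the group mean. LOX shows the low ORMES-22 replicate A (5.51, against 7.65 and 7.77), and COL11A1 shows rPESC-2 replicate C at 7.40.

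Among the ES lines few of these genes were called. Between rPESC-2 and ORMES-22, 1 of 45 was higher (P4HA1) and 2 were lower (LOX and COL6A3), where 1.02% of all named genes were higher and 0.685% lower. Between ORMES-9 and ORMES-22, 0 were higher and 2 were lower (COL8A2 and COL12A1), where 1.38% and 0.916% of all named genes were called higher and lower. By limma at an unadjusted p under 0.05, 25 of the 45 genes differed in the first comparison and 20 in the second. Of all named genes 26.2% and 24.5% did, so the share among the 45 genes was the larger in both. The median difference was -0.16 and -0.14, and that of all named genes was -0.03 and -0.01. Both comparisons use the same 3 ORMES-22 arrays, so their values are set side by side below and not counted as separate support.

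**Figure D4:**
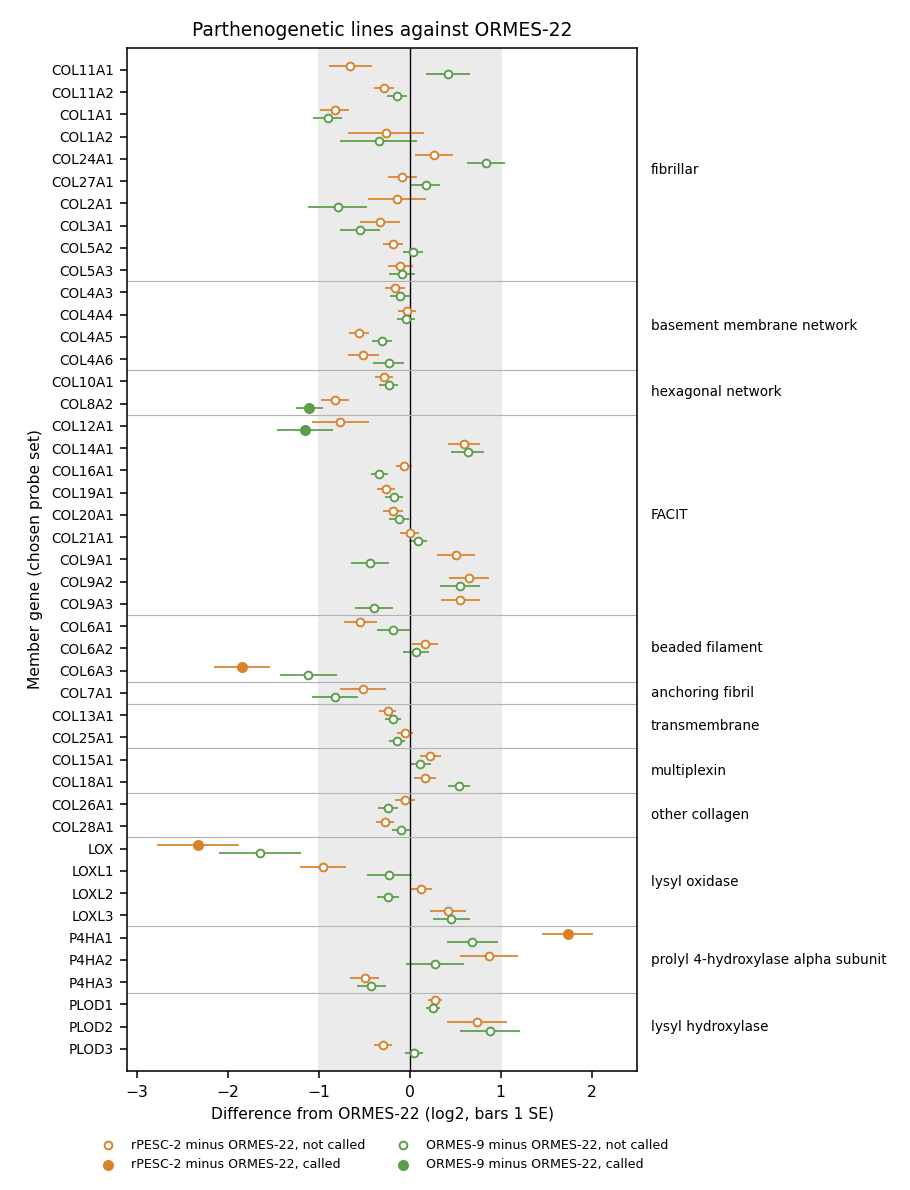
Difference of rPESC-2 (orange) and of ORMES-9 (green) from ORMES-22 for each gene (log2, point with 1 SE); filled points are called, and the grey band marks differences under 2-fold. LOX and COL6A3 lie to the left for both lines and P4HA1 to the right, with the rPESC-2 point the farther out in each case.

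LOX fell by 2.32 in rPESC-2 (SE 0.45, limma adjusted p = 0.0134) and differed by -1.64 in ORMES-9 (SE 0.45, adjusted p = 0.0565, not called). The values given above show that all rPESC-2 arrays were below all ORMES-22 arrays, and that ORMES-22 replicate A was more than 2 log2 units under its partners and within the ORMES-9 range. Without that replicate the differences were -3.05 and -2.38, and both were called. With ORMES-22 replicate B left out, the rPESC-2 difference was -1.98, and without rPESC-2 replicate B it was -2.30; neither was then called. It was also not called with only rPESC-2 and ORMES-22 in the fit (adjusted p = 0.150). The other LOX probe sets differed by -0.40 each in rPESC-2 and by -0.36 and -0.48 in ORMES-9, none called, and in the ES lines one of these lay below background.

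COL6A3 fell by 1.84 in rPESC-2 (SE 0.31, limma adjusted p = 0.00614), and its highest rPESC-2 array, 7.20, was below its lowest ORMES-22 array, 7.83. In ORMES-9 it differed by -1.11 (adjusted p = 0.0648), also without overlap. The other type VI chains were not called in either line, with COL6A1 at -0.54 and -0.18 and COL6A2 at 0.17 and 0.07. With only rPESC-2 and ORMES-22 in the fit, the COL6A3 difference was not called (adjusted p = 0.115). COL6A3 was the only type VI chain called in these comparisons, though differences between chains were not tested.

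P4HA1 rose by 1.74 in rPESC-2 (SE 0.28, limma adjusted p = 0.00395), with every rPESC-2 array above every ORMES-22 array. With only these lines in the fit it was not called (adjusted p = 0.0890). In ORMES-9 the difference was 0.69 (adjusted p = 0.200), and replicate A of ORMES-22, at 9.24, lay within the ORMES-9 values. The other P4HA1 probe set read -0.23 in rPESC-2 and was not called. P4HA2, another alpha subunit, and the lysyl hydroxylase gene PLOD2 differed from ORMES-22 by 0.87 and 0.74 in rPESC-2 and by 0.28 and 0.88 in ORMES-9, none called. For each of them ORMES-22 replicate A was high, at 9.04 for P4HA2 and 8.88 for PLOD2, against 7.22 to 7.78 in its partners.

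Leaving out ORMES-22 replicate A raised the number of called genes to 7 in rPESC-2 and 6 in ORMES-9. In rPESC-2 these were LOX, COL6A3, COL12A1 and LOXL1 (-1.33) on the lower side, and P4HA1 (2.17), P4HA2 (1.36) and PLOD2 (1.24) on the higher. In ORMES-9 they were LOX, COL8A2 (-1.14), COL12A1 (-1.39) and COL7A1 (-1.07) on the lower side, and P4HA1 (1.12) and PLOD2 (1.38) on the higher. The number of enzymes called between these lines therefore depends on this library, and the LOX and P4HA1 calls depend also on the other settings given above.

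COL8A2 fell by 1.10 in ORMES-9 (SE 0.15, limma adjusted p = 0.000863). In rPESC-2 it was also below every ORMES-22 array, by less than 2-fold (-0.82, adjusted p = 0.00892). With ORMES-22 replicate B left out, the ORMES-9 difference was -0.92, and with ORMES-9 replicate A left out it was 1.99-fold, so its call rests on the 2-fold limit. COL12A1 differed by -1.15 in ORMES-9 (SE 0.31, limma adjusted p = 0.0497) and by -0.76 in rPESC-2 (adjusted p = 0.189). Its ORMES-9 call is marginal, since leaving out any of the 12 arrays other than ORMES-22 replicate A and ORMES-9 replicate C ended it, with values from -0.78 to -1.26.

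Several collagens passed the adjusted p but stayed under 2-fold. COL1A1 was -0.82 in rPESC-2 (limma adjusted p = 0.0110) and -0.90 in ORMES-9 (adjusted p = 0.00440), with no overlap with ORMES-22 in either line, whereas COL1A2 differed by -0.26 and -0.34 within a wide scatter. COL4A5 was -0.56 in rPESC-2 (adjusted p = 0.0142). COL18A1 was 0.54 higher in ORMES-9 (adjusted p = 0.0163). COL24A1, a fibrillar collagen, was 0.84 higher in ORMES-9 (adjusted p = 0.0402), but its values there were 4.05, 5.07 and 4.05, so 1 array was above background.

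By class, with called genes included, differences from ORMES-22 spread most among the lysyl oxidases. These ran from -2.32 to 0.42 in rPESC-2 and from -1.64 to 0.46 in ORMES-9. The type VI genes ran from -1.84 to 0.17 and from -1.11 to 0.07. The 10 fibrillar genes ran from -0.82 to 0.27 in rPESC-2 and from -0.90 to 0.84 in ORMES-9. The 4 basement membrane genes ran from -0.56 to -0.03 and from -0.30 to -0.04, all below the ORMES-22 mean. Among them COL4A4 (-0.03 and -0.04) lay below background in every group and COL4A3 close to it, so the direction of these genes is not informative. The 9 FACIT genes ran from -0.76 to 0.65 in rPESC-2, with all 3 type IX chains positive (0.51, 0.65 and 0.56, none called), and from -1.15 to 0.64 in ORMES-9. COL14A1 stood 0.60 (rPESC-2) and 0.64 (ORMES-9) above ORMES-22 and was not called.

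The parthenogenetic lines were also set against each other. Between ORMES-9 and rPESC-2, 1 of 45 genes was higher in ORMES-9 (COL11A1) and 0 were lower, where 0.777% of all named genes were higher and 0.877% lower. At an unadjusted p under 0.05 limma gave 12 of the 45 genes, against 21.8% of all named genes. COL11A1 read 8.48, 8.55 and 7.40 in rPESC-2, 9.09, 9.42 and 9.12 in ORMES-9, and 8.59, 8.91 and 8.88 in ORMES-22. The difference was 1.07 (SE 0.24, limma adjusted p = 0.0237), without overlap, but 0.70 and under 2-fold without rPESC-2 replicate C. With only these lines in the fit its adjusted p was 0.0764. It was also not called without ORMES-9 replicate A (1.13), B (0.97) or C (1.12), and the other COL11A1 probe set gave 0.75. P4HA1 was 1.05 lower in ORMES-9 (difference -1.05, SE 0.28, limma adjusted p = 0.0525), without overlap, and just missed the call. It was called with only these lines in the fit (adjusted p = 0.00498), without dim probe sets (0.0394), with quantile scaling (0.0353), and without ORMES-22 replicate A (0.000274), B (0.0238) or C (0.0486). P4HA1 stayed uncalled with the replicate letter as a block, array medians subtracted, a trended robust fit or the mean of its probe sets. The same held when any single rPESC-2, ORMES-9 or fibroblast array was left out. The other P4HA1 probe set gave 0.09 in this comparison and was not called. Of the type IX chains, COL9A1 (-0.94, adjusted p = 0.0224) and COL9A3 (-0.95, adjusted p = 0.0231) were lower in ORMES-9 by less than 2-fold, and COL9A2 differed by -0.10. For COL2A1 the second probe set was lower in ORMES-9 (-1.15, adjusted p = 0.0240), while the chosen one gave -0.65 and was not called.

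Markers of other cells were read beside the ES differences. The 11 fibroblast markers had mean levels of 6.59 to 6.74 in ORMES-22, 6.13 to 6.42 in rPESC-2 and 6.04 to 6.34 in ORMES-9. One of them, TWIST1, was called lower in both parthenogenetic lines (-1.80 and -2.67), and FAP and LUM were below background in all ES lines. The 3 smooth muscle and pericyte markers measured had mean levels of 10.89 to 11.32 in ORMES-22. In rPESC-2 their mean levels were 10.31 to 10.56, and in ORMES-9 9.58 to 10.07. Among them, MYH11 and CNN1 were called lower in ORMES-9 (-1.64 and -1.50). The 8 endoderm markers had mean levels of 5.97 to 6.62 in ORMES-22, 7.40 to 7.53 in rPESC-2 and 7.01 to 7.40 in ORMES-9. Against ORMES-22, 4 of these were called higher in rPESC-2 and 3 in ORMES-9, while DAB2 was lower and not called (-1.15 and -0.57). Of 5 endothelial markers, only TEK was called against ORMES-22, lower in ORMES-9 (-2.29, limma adjusted p = 4.92e-05). The part of these cells in the LOX, COL6A3, COL8A2, COL12A1 and P4HA1 differences was not tested.

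Ranked by group mean, 22 of the 45 genes were highest in fibroblasts, 14 in ORMES-22, 5 in rPESC-2 and 4 in ORMES-9. Fibroblasts were also the lowest group for 19 genes, ORMES-22 for 8, and rPESC-2 and ORMES-9 for 9 each. These ranks are descriptions, with no ranks of all named genes to set beside them. For most of the genes, neighbouring ES lines in the order were not called different.

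Other genes of the collagen pathway were read in the fibroblast comparison from lists of related genes, beside the 13.2% of all named genes called higher and 15.0% called lower. Of 12 measured chaperones and modifying enzymes outside the 45 genes, 7 were higher in fibroblasts and 0 lower. FKBP14 (2.26, SE 0.09) and FKBP10 (1.71, SE 0.09) encode prolyl isomerases of the endoplasmic reticulum, and TMEM38B (1.89, SE 0.17) an ion channel of that compartment. Of 9 measured genes for propeptide processing, 4 were higher and 1 lower. ADAMTS2, which trims the amino-terminal propeptide of fibrillar procollagens, was 4.30 higher (SE 0.06) and its relative ADAMTS3 1.59 lower (difference -1.59, SE 0.22). PCOLCE2 (4.44, SE 0.09) and PCOLCE (1.95, SE 0.08), enhancers of carboxy-terminal trimming, were higher.

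Of 11 measured proteoglycans and fibril partners, 6 were higher and 0 lower. LUM (7.75, SE 0.19) and ASPN (7.37, SE 0.05) encode small leucine-rich proteoglycans that bind fibrils, and DPT (3.48, SE 0.09) encodes dermatopontin. All 5 measured collagen receptor genes were higher, led by DDR2 (3.33, SE 0.11), ITGA2 (3.15, SE 0.07) and ITGB1 (2.79, SE 0.24). The median differences of these lists were 1.16, 0.04, 1.17 and 2.79, and that of all named genes was -0.15. Between ES lines 3 genes of these lists were called. P3H2, which encodes another prolyl hydroxylase, fell by 1.87 in rPESC-2 (limma adjusted p = 0.00340). ITGB1 fell by 1.30 in rPESC-2 (limma adjusted p = 0.0263), and PCOLCE fell by 1.15 in ORMES-9 (limma adjusted p = 1.95e-05).

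**Figure D5:**
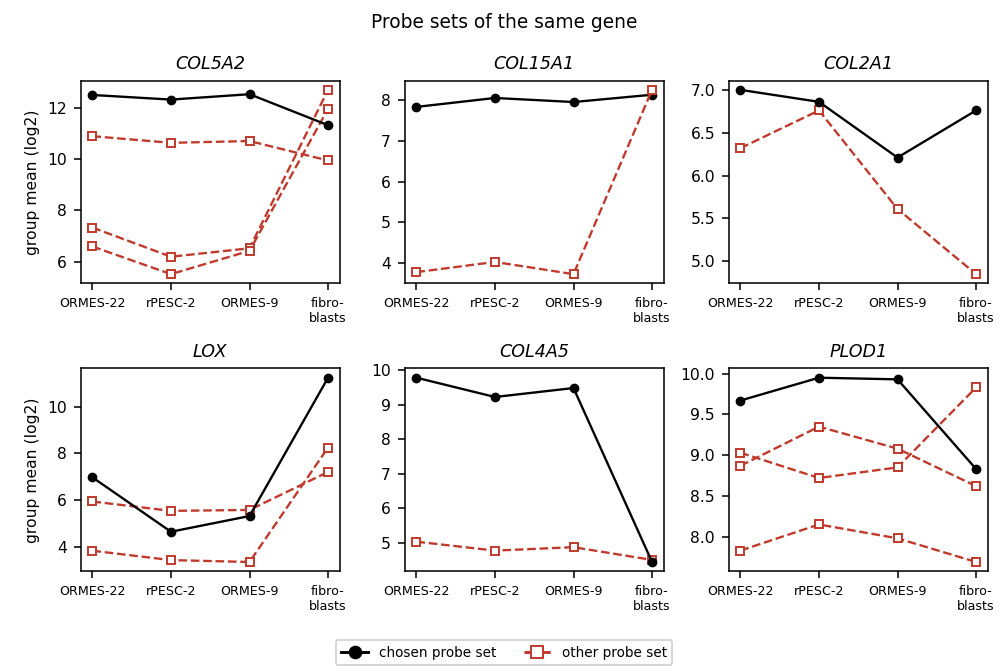
Group mean (log2 level, vertical axis) of each probe set in the 4 groups for 6 genes whose probe sets differ; black is the probe set used in the text and red dashed lines are the others. The lines of COL5A2 cross between ORMES-9 and fibroblasts, and the other COL15A1 probe set rises by 4.42 where the chosen one differs by 0.19.

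How far a gene's call depends on its probe set was read over the 24 genes with several. For 12 of them all probe sets had the same call in the fibroblast comparison, and for 12 at least 1 differed. In 1 gene, COL5A2, probe sets were called in opposite directions. For 3 genes the chosen probe set was not called while another was, namely COL2A1 (-1.38), COL15A1 (4.42) and LOXL2 (1.06). The type I chains differed in this respect: both COL1A2 probe sets rose (5.75 and 6.32), whereas the second COL1A1 probe set gave 0.31 and was not called. Since the probes were not matched to transcripts here, which probe set reports each gene best was not tested.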

How the data were processed

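RNA was labelled by a one-cycle protocol and hybridised to 12 Affymetrix arrays, per the labels' protocols. The authors deposited log2 values summarised by RMA, per the submitters' processing notes; software version and probe set definition are not given in the sources used here. RMA equalises array distributions, so changes shared by most genes are reduced and those near background understated. Of 52865 features, 99 controls were left out. Of 52766 probe sets, 24956 had 1 symbol, 361 several and 27449 none, by the platform annotation; LOC symbols were not used. By gene ID, 42 of the 45 genes matched T2T-MMU8v2.0 under the same symbol.

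Group means were fitted over all 12 arrays with limma 3.58.1 in R 4.3.3 (8 residual and 3.69 prior degrees of freedom, two-sided p), after a test on simulated data. The genes and lists were chosen with earlier results of these data known. Array values are given for genes called between ES lines, the 8 largest called rises and falls in fibroblasts and the gene with the highest mean of each class; context lists name at most 3 called genes in each direction. Alternatives covered the arrays fitted, scaling, filters, moderation, fold minimum, probe set choice, replicate letter and each array left out. The number of arrays limits precision.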

Additional observations from a re-analysis of the deposited data

Results flagged for a closer look

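The mean of COL11A1 was above ORMES-22 in ORMES-9 (0.42, limma adjusted p = 0.405) and below it in rPESC-2 (-0.65, adjusted p = 0.153). Neither of these differences was called. The gap between them is the ORMES-9 against rPESC-2 comparison given above (1.07, SE 0.24, limma adjusted p = 0.0237) and not a separate result. Without rPESC-2 replicate C this gap was 0.70. Its call was also lost without any single ORMES-9 replicate, and with only these lines in the fit (adjusted p = 0.0764).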

How the results depend on the processing

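Called genes numbered 3, 2, 1 and 28 for rPESC-2 against ORMES-22, ORMES-9 against ORMES-22, ORMES-9 against rPESC-2 and fibroblasts against the ES lines. With only the groups compared in the fit, the first 3 were 0, 1 and 1, the last being P4HA1 lower and not COL11A1; with array medians subtracted 3, 1, 1 and 27; with quantile scaling 3, 3, 2 and 28; without dim probe sets 3, 4, 2 and 28; with no fold minimum 6, 5, 3 and 37; with the mean of a gene's probe sets 2, 3, 0 and 26; and with a trended robust fit 3, 2, 1 and 28. Fibroblasts against ORMES-22 alone gave 26. The cause of these shifts was not tested, beyond the fewer arrays and the looser limit themselves. Leaving out each array in turn gave 2 to 7, 0 to 6, 0 to 2 and 26 to 28, lowest without ORMES-22 replicate B and highest without ORMES-22 replicate A in the first 2. The replicate letter as a block gave 3, 3, 1 and 28. Same-letter correlations of deviations ran from -0.31 to 0.35, with 4 of 18 above 0.1. Correlations between different letters were not computed beside them, so whether the letters are paired is not settled. With the mean of its probe sets COL5A2 reversed to 2.47 in fibroblasts. Under every alternative run, 23 of the 28 fibroblast calls held, and 0 of 3, 0 of 2 and 0 of 1 between ES lines. Signal near background limits COL4A3, COL4A4, COL8A2, COL10A1, COL21A1 and COL24A1.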
